A study of Mus musculus with 9 samples.

Results

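The nuclear genes for the subunits of the mitochondrial oxidative phosphorylation complexes were followed in RNA of mouse small intestine epithelial cells. Members were the protein-coding rows of the deposited count table whose names begin with Nduf, Sdh, Uqcr, Cyc1, Cox4 to Cox8 or Atp5 in the usual subunit patterns, which gave 83 of 43629 genes. By complex they were 37 genes of complex I, 4 of complex II, 9 of complex III, 16 of complex IV and 17 of complex V. The patterns miss a few true subunits, such as Ndufab1 and Cox4i1, and take in some relatives that are not subunits, such as Atp5s and Atp5sl.

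Oxidative phosphorylation passes electrons from NADH through complex I, and from succinate through complex II, to ubiquinone, then through complex III and cytochrome c to oxygen at complex IV. The proton gradient built by complexes I, III and IV drives ATP synthesis by complex V. Most subunits are encoded in the nucleus and imported, while a small core of complexes I, III, IV and V is encoded by mitochondrial DNA. In other cell types HIF1α, an oxygen-regulated transcription factor subunit, is known to lower respiration in hypoxia, in part by inducing the isoforms Ndufa4l2 and Cox4i2.

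The study has 3 groups of 3 libraries. The first group, HIF1α∆IEC, lacks HIF1α in intestinal epithelial cells, and the group HIF2α∆IEC lacks HIF2α there, as far as the strain labels say. The others were littermate controls labelled HIFαF/F, a floxed genotype that does not state which gene is floxed. All mice were labelled naïve, although the extraction text of the same labels speaks of a collagen-induced arthritis model. Neither the Cre driver nor the deleted exons are named, and age and sex are not labelled. Whether each library came from its own animal is not labelled, so the p-values take in the spread of these libraries, which could be technical.

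Libraries held 20959964 to 40391453 counts, and 15486 genes passed the filter on low counts. The targeted genes were no check of the labels. Hif1a had 22.6, 64.2 and 18.01 CPM (read counts scaled to library size by edgeR's TMM) in HIF1α∆IEC, against 15.97, 19.9 and 21.1 CPM in control. Epas1, the gene of HIF2α, had 36.1, 11.2 and 11.6 CPM in HIF2α∆IEC, against 32.7, 14.5 and 21.1 CPM in control. Counts over a whole gene need not read deleted exons, so libraries are called by their labels and every direction below rests on those labels. Counts from the mitochondrial genome made up 12.2% of HIF1α∆IEC replicate 2 and 10.8% of HIF2α∆IEC replicate 1, against 5.04% to 6.74% in the other 7 libraries. Xist and Y-linked genes read replicate 1 as male and replicates 2 and 3 as female in both ∆IEC groups, and all 3 controls as male. Epithelial markers fitted the label: 9 genes summed to 15600 to 22400 CPM in HIF1α∆IEC, 16700 to 19700 CPM in HIF2α∆IEC and 16000 to 22400 CPM in control.

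Promoters were not used in the selection by name, and their windows are described first, with no test of enrichment. RefSeq windows (GRCm38.p6, 250 bases before to 50 after the start of a gene) were found for 69 of 83 members, as 75 windows. NRF1, a regulator of mitochondrial genes, binds a palindromic element. Its form GCGCA, then 1 free base, then GCGC stood in 18 of 75 member windows, against 6.38% of all protein-coding windows of the same length. The 18 windows came from 17 genes, as overlapping windows of Ndufa5 share 1 match. The exact palindrome, with T as the free base and part of the same count, stood in 6.67% of member windows and 1.33% of protein-coding windows. The ETS core CCGGAAG, bound by the GABP factor, stood in 21.3% of member windows and 11.6% of protein-coding windows. The YY1 core AAGATGG stood in 17.3% and 6.24%. The hypoxia response core ACGTG, short and frequent, stood in 21 of 75 member windows and 20.9% of protein-coding windows, the NF-Y core CCAAT in 42.7% and 38.2%, and the TATAAA box in 10.7% and 12.6%. Both strands were searched, and a match is a description of letters.

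For each complex, the 250 bases before the start are given for the member with the most NRF1 and ETS matches there (in complex III Uqcr11, which ties with Uqcrh at 1 match), so that the elements behind these shares can be seen. Capitals mark the NRF1 form with 1 free base, and CCGGAAG or its reverse complement CTTCCGG. The windows are chr16:37654369-37654618 (minus strand) for Ndufb4, chr13:74350241-74350490 (minus) for Sdha, chr10:80406822-80407071 (minus) for Uqcr11, chr5:115348959-115349208 (minus) for Cox6a1 and chr11:115419920-115420169 (minus) for Atp5h.
Ndufb4: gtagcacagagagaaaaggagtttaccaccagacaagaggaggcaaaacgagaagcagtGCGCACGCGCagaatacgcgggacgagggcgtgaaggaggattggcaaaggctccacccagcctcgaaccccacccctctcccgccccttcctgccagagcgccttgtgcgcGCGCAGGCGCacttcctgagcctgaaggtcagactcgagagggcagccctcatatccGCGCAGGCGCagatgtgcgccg
Sdha: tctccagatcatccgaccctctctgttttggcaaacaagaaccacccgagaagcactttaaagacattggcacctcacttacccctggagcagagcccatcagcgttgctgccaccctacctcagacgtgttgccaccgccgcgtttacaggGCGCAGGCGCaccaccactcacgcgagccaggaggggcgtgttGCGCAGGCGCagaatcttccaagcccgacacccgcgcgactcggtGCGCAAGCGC
Uqcr11: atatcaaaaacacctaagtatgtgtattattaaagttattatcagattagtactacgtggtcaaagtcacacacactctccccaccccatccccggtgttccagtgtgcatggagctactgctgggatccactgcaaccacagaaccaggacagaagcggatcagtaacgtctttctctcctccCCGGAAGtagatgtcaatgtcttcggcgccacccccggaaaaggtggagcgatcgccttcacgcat
Cox6a1: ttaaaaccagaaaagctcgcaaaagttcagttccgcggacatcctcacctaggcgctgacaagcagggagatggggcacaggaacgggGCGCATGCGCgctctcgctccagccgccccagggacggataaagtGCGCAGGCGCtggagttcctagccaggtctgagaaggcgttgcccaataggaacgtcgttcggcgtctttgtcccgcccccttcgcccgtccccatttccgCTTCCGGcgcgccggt
Atp5h: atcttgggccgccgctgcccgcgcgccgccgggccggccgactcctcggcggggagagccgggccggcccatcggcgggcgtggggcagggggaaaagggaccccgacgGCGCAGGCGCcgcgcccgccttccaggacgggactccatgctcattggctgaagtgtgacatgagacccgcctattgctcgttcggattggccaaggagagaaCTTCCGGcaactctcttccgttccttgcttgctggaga
Ndufb4 and Sdha carried 3 NRF1 matches each. Cox6a1 carried 2 NRF1 matches and 1 ETS match, Atp5h had 1 of each, and Uqcr11 had 1 ETS match. The 17 tested members with an NRF1 match had a median log2 fold change of 0.38 in HIF1α∆IEC against control, and the 50 tested members whose windows lacked one had 0.43. In the same comparison the 18 tested members with ACGTG had a median of 0.32 and the 49 without it 0.44.

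Epithelial cells expressed nearly the whole set. Of the 83 members, 79 passed the filter, and 55 had at least 100 CPM in every library. The 4 that did not pass were isoforms known from other tissues or from hypoxia. Ndufa4l2 had 0, 2 and 0 counts in HIF1α∆IEC, 4, 5 and 2 counts in HIF2α∆IEC and 4, 0 and 2 counts in control. Cox8b, the heart and muscle form of subunit VIII, had 1, 1 and 0 counts in HIF1α∆IEC, 1, 1 and 0 counts in HIF2α∆IEC and 0 in all controls. Cox7b2 and Cox8c, both known from testis, were at 0 counts in all 9 libraries, where 3 counts is the limit that a count of 0 allows in a library. Cox4i2, which the name rule leaves out, had 0, 0 and 2 counts in HIF1α∆IEC, 0, 1 and 0 counts in HIF2α∆IEC and 3, 3 and 1 counts in control.

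Levels between genes were compared per kilobase of the median coding transcript in GENCODE M21, a length that is uncertain where isoforms differ. By the mean of a group's libraries, complex V stood highest and complex I lowest in every group. Median levels per kilobase were 642 ± 15.2 CPM for complex V in HIF1α∆IEC, 438 ± 62.2 in HIF2α∆IEC and 466 ± 132 in control (SD, n = 3 each). Complex III had 592 ± 64.6 CPM per kilobase in HIF1α∆IEC, 418 ± 60.5 in HIF2α∆IEC and 453 ± 91.5 in control. Complexes V and III thus overlapped within their spread, and complex III stood above complex V in replicate 3 of each group. Complex IV had 411 ± 25.6 CPM per kilobase in HIF1α∆IEC, 325 ± 48.8 in HIF2α∆IEC and 321 ± 88.2 in control. Complex II had 289 ± 54.5 CPM per kilobase in HIF1α∆IEC, 248 ± 15.6 in HIF2α∆IEC and 279 ± 53.0 in control, and complex I had 193 ± 8.69 in HIF1α∆IEC, 146 ± 20.6 in HIF2α∆IEC and 155 ± 34.1 in control. The median over all tested protein-coding genes was 6.83 ± 0.472 CPM per kilobase in HIF1α∆IEC, 6.97 ± 0.532 in HIF2α∆IEC and 6.94 ± 0.326 in control. Atp5b, the catalytic β subunit of ATP synthase, reached 1832 CPM per kilobase in HIF1α∆IEC, 1667 in HIF2α∆IEC and 1842 ± 426 in control. These are group means, and single HIF1α∆IEC libraries lay far apart, as the values under complex V show.

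In HIF1α∆IEC against control most subunit genes lay higher, but no gene of the table passed the test. Of the 79 tested members 70 had a positive log2 fold change and 9 a negative one, with a median of 0.40 and a range of -0.48 to 1.24. The lower end was the low-count isoform Cox6a2, and the lowest value of complex III was -0.47. Over all 15486 genes 8161 were positive and 7325 negative, with a median of 0.02. The share called at an edgeR adjusted p under 0.05 was 0.0% of all genes, and 0 of 79 members. The smallest adjusted p of a member was 0.999 (edgeR). At an unadjusted p under 0.05, 27 members were higher and 0 lower, against 2.91% of all genes higher and 0.969% lower, and DESeq2 gave 26 and 0. All 3 HIF1α∆IEC libraries lay above all 3 controls for 20 members, against 4.6% of all genes. The count of 27 was 4 higher and 1 lower without HIF1α∆IEC replicate 2, 4 higher without control replicate 2 or control replicate 3, and 44 higher without control replicate 1. With a term for sex it was 0, although 74 of 79 members were then positive. No control was read as female, so that term was set by replicate 1 against replicates 2 and 3 within the ∆IEC groups. There sex and replicate number cannot be told apart. Over all genes, 600 had an unadjusted p under 0.05 in either direction with all libraries, and 438 with the sex term. Without HIF1α∆IEC replicate 2 these were 450 genes. They were 235 without control replicate 2, 219 without control replicate 3 and 1150 without control replicate 1.

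The single libraries show where this difference sits. The median deviation of the members from the control mean was 0.37, 0.58 and 0.41 log2 units in HIF1α∆IEC, against 0.38, -0.17 and -0.17 in control. For the members, control replicate 1 thus lay with the HIF1α∆IEC libraries and apart from both other controls. Its likeness to HIF1α∆IEC replicate 1 was not limited to members. Over all genes tested, log2 CPM of control replicate 1 correlated at 0.9866 with HIF1α∆IEC replicate 1, and at 0.9446 and 0.9791 with replicates 2 and 3. With control replicates 2 and 3 it correlated at 0.9747 and 0.9728. Control replicate 1 was the highest control for 68 of 79 members, against 39.5% of all genes, and it lay above the HIF1α∆IEC mean for 23 members, against 44.7% of all genes. All HIF1α∆IEC libraries lay above control replicates 2 and 3 for 60 members, against 14.9% of all genes, and above control replicate 1 for 21 members, against 18.8% of all genes. Without control replicate 1 the median log2 fold change was 0.55, and leaving out any other single library gave 0.32 to 0.41.

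**Figure D1:**
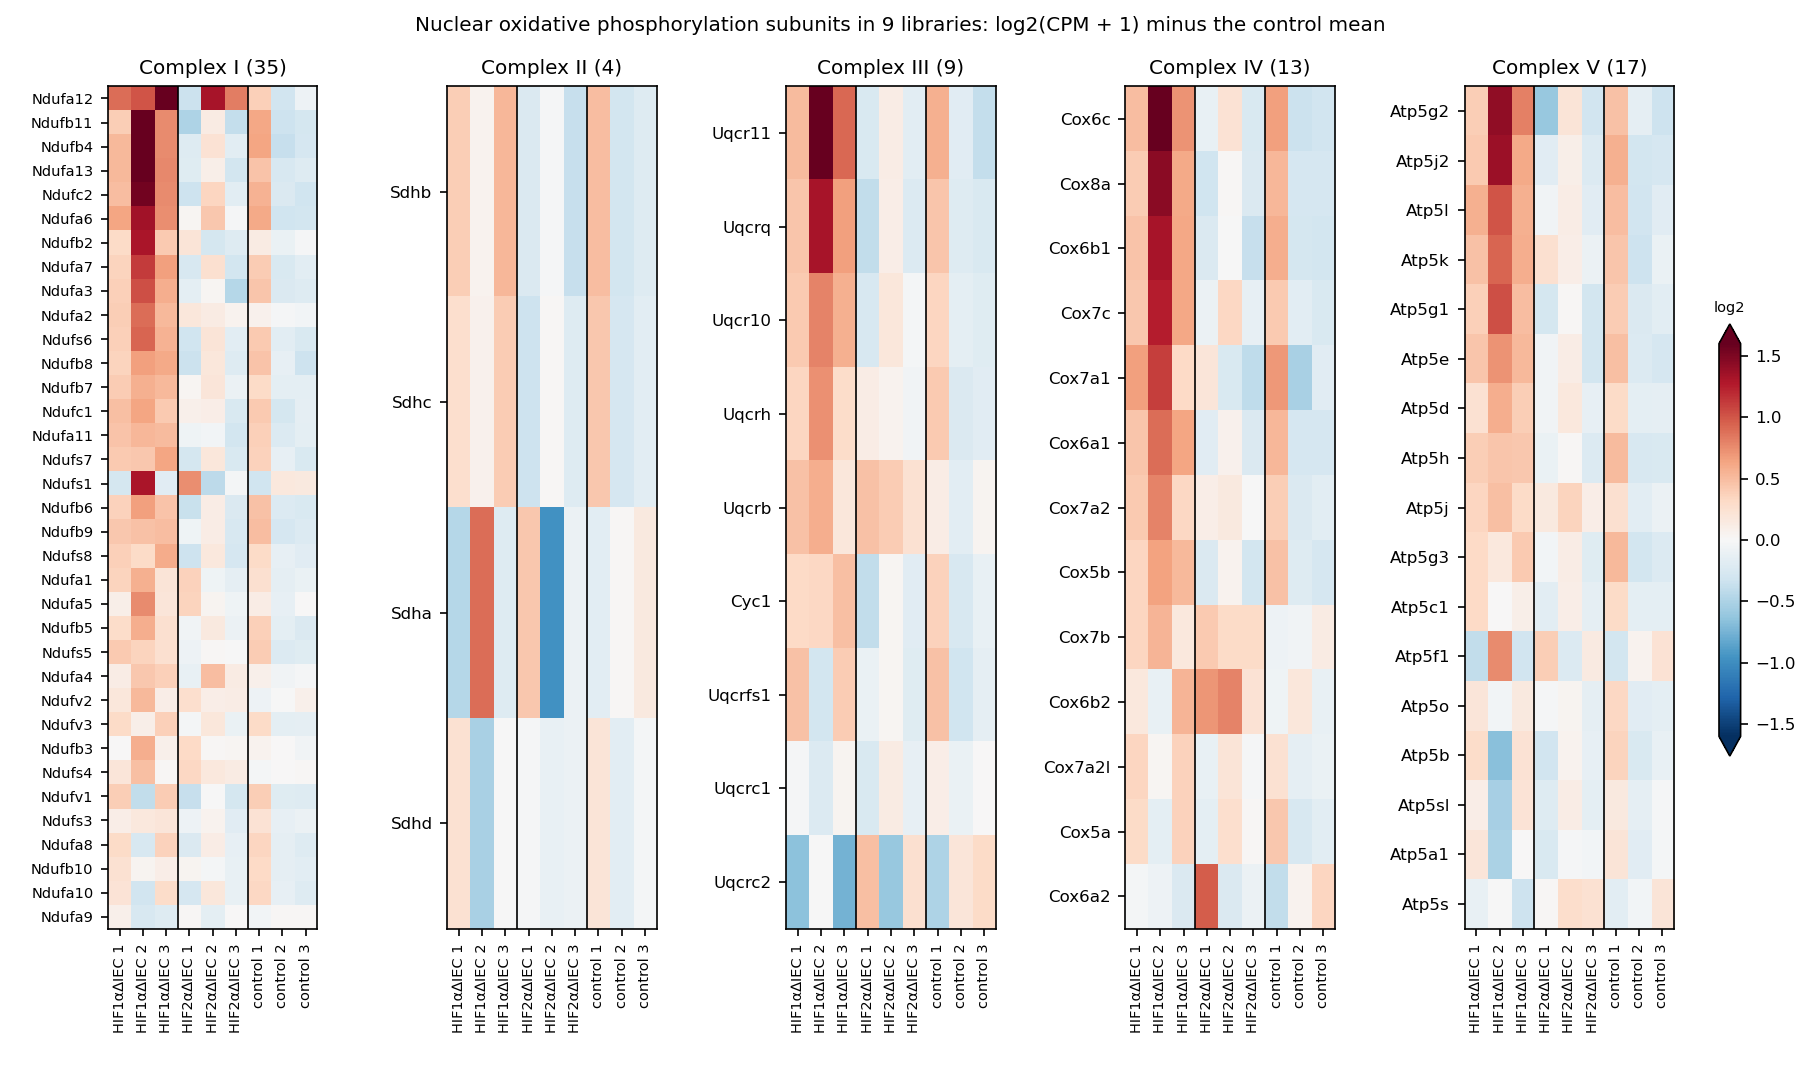
Each row is 1 of 78 tested subunit genes and each column 1 library, with colour for log2(CPM + 1) minus the mean of the 3 controls, sorted within a complex by fold change in HIF1α∆IEC. Columns of HIF1α∆IEC are red for most genes, control replicate 1 is also red for most of them, and Sdha, Uqcrc2, Ndufs1 and Atp5f1 follow other libraries.

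Complex I oxidises NADH in a peripheral arm of conserved core subunits, surrounded by many accessory subunits. In HIF1α∆IEC against control 35 of its 36 tested genes were positive, with a median log2 fold change of 0.44. Accessory genes had a median of 0.48 (28 of 29 positive) and the 7 nuclear core genes a median of 0.28 (7 of 7 positive). The same 29 and 7 genes in HIF2α∆IEC against control had medians of -0.05 and -0.13. HIF2α∆IEC against HIF1α∆IEC gave -0.51 and -0.30.

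Ndufa13, an accessory subunit of the membrane arm (ENSMUSG00000036199, mm10 chromosome 8, 69894188 to 69902558, minus strand), had 190, 400 and 226 CPM in HIF1α∆IEC, against 182, 111 and 115 CPM in control. The groups did not overlap, but HIF1α∆IEC replicate 1 exceeded control replicate 1 by little, and replicate 2 was far above both other HIF1α∆IEC libraries. HIF2α∆IEC had 116, 141 and 108 CPM, close to the lower controls. The log2 fold change was 1.00 ± 0.31 in HIF1α∆IEC against control (SE; edgeR adjusted p = 0.999) and -1.17 ± 0.31 in HIF2α∆IEC against HIF1α∆IEC (edgeR adjusted p = 0.649). Without HIF1α∆IEC replicate 2 and HIF2α∆IEC replicate 1 these were 0.58 and -0.698. Ndufa13 overlaps Tssk6 and Yjefn3 in the annotation, so some of its reads could be shared.

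Ndufa12, an accessory subunit (ENSMUSG00000020022, chromosome 10, 94198955 to 94221443), had the largest positive fold change of the set. It had 86.4, 93.2 and 152 CPM in HIF1α∆IEC, against 60.2, 37.0 and 43.3 CPM in control, so all HIF1α∆IEC libraries were higher. In HIF2α∆IEC it had 35.96, 116 and 81.6 CPM, below every control in 1 library and above every control in both others. Its log2 fold change was 1.24 ± 0.39 in HIF1α∆IEC (SE; edgeR adjusted p = 0.999) and 0.73 ± 0.38 in HIF2α∆IEC (SE; edgeR adjusted p = 1.0), both against control. Its highest HIF1α∆IEC library was replicate 3, while for 50 of 79 members it was replicate 2.

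Ndufa2, a small accessory subunit of the NADH-oxidising arm, had 74.1, 106 and 81.2 CPM in HIF1α∆IEC, against 59.2, 55.2 and 54.3 CPM in control. Here control replicate 1 lay near the other controls, and the groups did not overlap, with a log2 fold change of 0.63 ± 0.20 (SE; edgeR adjusted p = 0.999). Ndufb11, an X-linked accessory subunit of the membrane arm, had 254, 674 and 326 CPM in HIF1α∆IEC, against 296, 153 and 158 CPM in control, which overlapped. HIF2α∆IEC had 137, 210 and 148 CPM, all below HIF1α∆IEC, and its log2 fold change against HIF1α∆IEC, -1.34 ± 0.38 (SE; edgeR adjusted p = 0.649), was the lowest of all members. Its gene overlaps Rbm10 on the opposite strand. Ndufa3 had 132, 208 and 152 CPM in HIF1α∆IEC, against 138, 86.1 and 87.6 CPM in control.

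The core subunits of complex I carry the flavin and the iron-sulfur clusters. Ndufs7 had 249, 249 and 286 CPM in HIF1α∆IEC, against 239, 170 and 157 CPM in control. Ndufs8 had 226, 215 and 263 CPM in HIF1α∆IEC, against 215, 159 and 153 CPM in control. For both genes the lowest HIF1α∆IEC library was just above control replicate 1. Ndufv2 had 189, 239 and 179 CPM in HIF1α∆IEC, 202, 179 and 181 CPM in HIF2α∆IEC and 158, 166 and 177 CPM in control, so all 6 ∆IEC libraries lay above the controls. HIF1α∆IEC lay wholly above control for 4.6% of all genes and HIF2α∆IEC for 3.03%. The share for all 6 libraries together was not counted. Ndufs3 had log2 fold changes of 0.15 in HIF1α∆IEC and -0.08 in HIF2α∆IEC, and Ndufv1, which binds NADH, had 0.15 and -0.24.

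Ndufs1, the largest nuclear subunit of complex I, followed a pattern of its own. It had 42.8, 130 and 45.9 CPM in HIF1α∆IEC, 87.8, 38.8 and 50.8 CPM in HIF2α∆IEC and 41.5, 58.5 and 58.2 CPM in control. It was highest in the 2 libraries rich in mitochondrial transcripts. Without HIF1α∆IEC replicate 2 its log2 fold change against control was -0.29, against 0.47 with it. Its gene overlaps Eef1b2 and Ino80dos on the opposite strand, and the strand setting of the counting is not stated for these counts. Ndufa4, named for complex I but now assigned to complex IV, had 273, 337 and 326 CPM in HIF1α∆IEC, 230, 354 and 274 CPM in HIF2α∆IEC and 264, 240 and 247 CPM in control. Ndufs4, an accessory subunit whose loss causes encephalopathy in mice, had 73.0, 65.1 and 63.0 CPM in HIF2α∆IEC, against 56.5, 57.8 and 58.7 CPM in control, with no overlap and a log2 fold change of 0.22 ± 0.19 (SE; edgeR adjusted p = 1.0).

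Complex II, succinate dehydrogenase, belongs to the tricarboxylic acid cycle as well and has only nuclear subunits. Its 4 genes had a median log2 fold change of 0.21 in HIF1α∆IEC against control, the lowest of the 5 complexes, and -0.16 in HIF2α∆IEC against control. Sdhb, the iron-sulfur subunit, had 589, 467 and 649 CPM in HIF1α∆IEC, 381, 440 and 345 CPM in HIF2α∆IEC and 630, 365 and 389 CPM in control. HIF1α∆IEC and HIF2α∆IEC did not overlap, while control replicate 1 lay among the HIF1α∆IEC libraries and both other controls among HIF2α∆IEC. The log2 fold change in HIF2α∆IEC against HIF1α∆IEC was -0.55 ± 0.25 (SE; edgeR adjusted p = 0.757). Sdhc, a membrane anchor, followed the same order with 464, 405 and 512 CPM in HIF1α∆IEC, 305, 391 and 334 CPM in HIF2α∆IEC and 519, 321 and 344 CPM in control. Sdhd, the other anchor, had a lower value in HIF1α∆IEC replicate 2 than in any other library, with 529, 311 and 445 CPM in HIF1α∆IEC, 438, 412 and 417 CPM in HIF2α∆IEC and 515, 395 and 435 CPM in control.

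Sdha, the flavoprotein, went with Ndufs1 rather than with its partners. It had 188, 482 and 224 CPM in HIF1α∆IEC, 348, 132 and 242 CPM in HIF2α∆IEC and 229, 262 and 289 CPM in control. HIF1α∆IEC replicate 2 was the highest library and HIF2α∆IEC replicate 2 the lowest. Its log2 fold change in HIF1α∆IEC against control was 0.20, and -0.37 without HIF1α∆IEC replicate 2.

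Complex III moves electrons from ubiquinol to cytochrome c. The 4 larger genes, Uqcrc1 and Uqcrc2 for the core proteins, Uqcrfs1 for the Rieske iron-sulfur protein and Cyc1 for cytochrome c1, had a median log2 fold change of 0.07 in HIF1α∆IEC against control, with 2 positive and 2 negative. The 5 small subunits had a median of 0.59, all positive. Of them 3 were higher at an unadjusted p under 0.05 (edgeR), against 2.91% of all genes. Uqcr11, the smallest subunit (ENSMUSG00000020163, chromosome 10, 80402997 to 80406830, minus strand), had 235, 540 and 313 CPM in HIF1α∆IEC, 139, 180 and 148 CPM in HIF2α∆IEC and 246, 146 and 127 CPM in control. HIF1α∆IEC overlapped control through control replicate 1 and did not overlap HIF2α∆IEC. Its log2 fold change was 1.07 ± 0.33 against control (SE; edgeR adjusted p = 0.999), and in HIF2α∆IEC against HIF1α∆IEC it was -1.22 ± 0.33 (SE; edgeR adjusted p = 0.649).

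Uqcrq, which lies by the ubiquinone site, had 567, 1037 and 657 CPM in HIF1α∆IEC, against 566, 361 and 352 CPM in control. Uqcr10 had 270, 350 and 297 CPM in HIF1α∆IEC, against 255, 180 and 176 CPM in control. In both genes the lowest HIF1α∆IEC library was almost level with control replicate 1. Uqcrb was higher in all 6 ∆IEC libraries, with 178, 193 and 145 CPM in HIF1α∆IEC, 178, 170 and 151 CPM in HIF2α∆IEC and 139, 114 and 132 CPM in control. Wholly above control were 4.6% of all genes in HIF1α∆IEC and 3.03% in HIF2α∆IEC, and the share for all 6 libraries was not counted. The log2 fold change of Uqcrb was 0.42 ± 0.20 in HIF1α∆IEC (SE; edgeR adjusted p = 0.999) and 0.37 ± 0.20 in HIF2α∆IEC (SE; edgeR adjusted p = 1.0). Cyc1 had 889, 898 and 999 CPM in HIF1α∆IEC, 545, 729 and 632 CPM in HIF2α∆IEC and 926, 601 and 658 CPM in control. Uqcrfs1 was at 581, 341 and 556 CPM in HIF1α∆IEC, against 579, 335 and 378 CPM in control.

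The core proteins of complex III did not lie higher in HIF1α∆IEC. Uqcrc1 varied little, from 724 to 939 CPM over all 9 libraries. Uqcrc2 (chromosome 7, 120635176 to 120659478) had 168, 264 and 157 CPM in HIF1α∆IEC, 370, 173 and 317 CPM in HIF2α∆IEC and 187, 303 and 327 CPM in control. Its low libraries were HIF1α∆IEC replicates 1 and 3, HIF2α∆IEC replicate 2 and control replicate 1, the reverse of most members. Over the 9 libraries its correlation with the median of all members was -0.692, the lowest of the 79, and Pdzd9 overlaps it on the opposite strand.

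**Figure D2:**
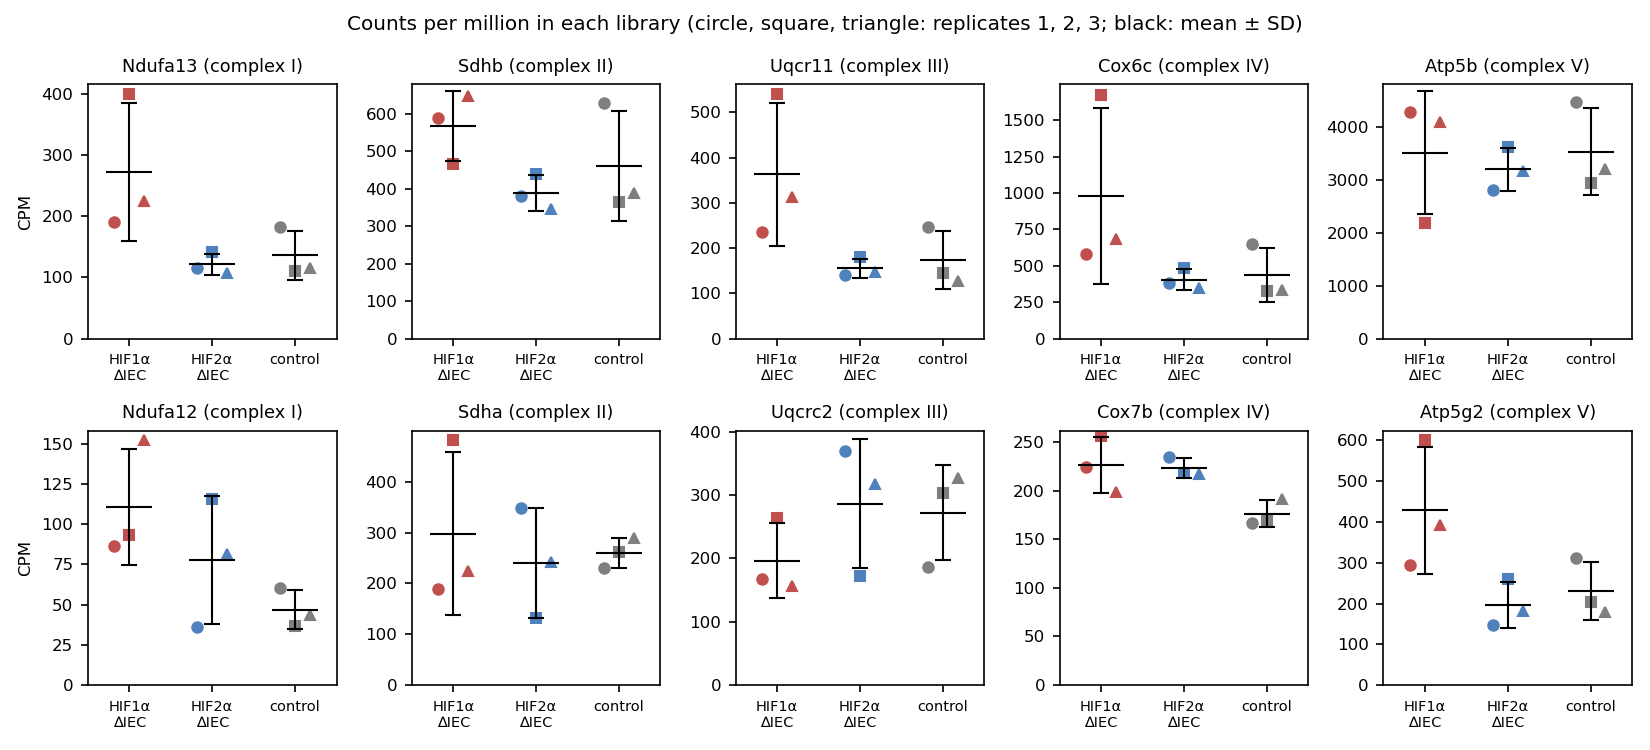
CPM (linear axes from 0) of 2 genes per complex, with 1 point per library, black bars for the mean and SD of 3, and HIF1α∆IEC, HIF2α∆IEC and control from left to right. Control replicate 1 (grey circle) lies with HIF1α∆IEC for Sdhb, Uqcr11, Cox6c and Atp5g2, HIF1α∆IEC replicate 2 (red square) is the highest library for Ndufa13, Uqcr11, Cox6c, Sdha, Cox7b and Atp5g2, and Cox7b is above control in all 6 ∆IEC libraries.

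Complex IV, cytochrome c oxidase, reduces oxygen, and its nuclear subunits surround a catalytic core made in mitochondria. The 10 widely expressed members had a median log2 fold change of 0.56 in HIF1α∆IEC against control, all positive, and -0.05 in HIF2α∆IEC against control. Their median in HIF2α∆IEC against HIF1α∆IEC was -0.72, all negative. Cox6c (ENSMUSG00000014313, chromosome 15, 35925886 to 35938246, minus strand) had 584, 1675 and 682 CPM in HIF1α∆IEC, 380, 486 and 347 CPM in HIF2α∆IEC and 651, 325 and 333 CPM in control. HIF1α∆IEC replicate 2 had more than any other library, and without it and HIF2α∆IEC replicate 1 the log2 fold change against control was 0.51, where all libraries gave 1.17 ± 0.41 (SE; edgeR adjusted p = 0.999). Vps13b overlaps Cox6c on the opposite strand.

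Cox8a had 895, 1831 and 1028 CPM in HIF1α∆IEC, 540, 683 and 575 CPM in HIF2α∆IEC and 976, 559 and 560 CPM in control. Cox6b1, which faces cytochrome c, had 600, 1087 and 672 CPM in HIF1α∆IEC, 373, 433 and 339 CPM in HIF2α∆IEC and 652, 359 and 355 CPM in control. In both, control replicate 1 stood above HIF1α∆IEC replicate 1 and the groups overlapped, while HIF2α∆IEC lay wholly below HIF1α∆IEC. Cox7c had 437, 773 and 498 CPM in HIF1α∆IEC, against 431, 287 and 271 CPM in control, and did not overlap by a small gap. Cox6a1 had 1079, 1470 and 1229 CPM in HIF1α∆IEC, against 1146, 654 and 657 CPM in control, and its correlation with the median of the members over 9 libraries, 0.995, was the highest. Cox5b, Cox5a and Cox7a2 had log2 fold changes of 0.47, 0.16 and 0.51 in HIF1α∆IEC and -0.19, 0.02 and 0.06 in HIF2α∆IEC. For Cox7a2l, known for joining complexes III and IV into supercomplexes, these were 0.24 and 0.02.

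Cox7b, X-linked (chromosome X, 106015700 to 106022450), had 224, 257 and 198 CPM in HIF1α∆IEC, 235, 218 and 217 CPM in HIF2α∆IEC and 167, 170 and 192 CPM in control. All 6 ∆IEC libraries were above all controls, with log2 fold changes of 0.36 ± 0.19 and 0.34 ± 0.19 (SE; edgeR adjusted p = 0.999 in HIF1α∆IEC and 1.0 in HIF2α∆IEC). Of all genes, 4.6% lay wholly above control in HIF1α∆IEC and 3.03% in HIF2α∆IEC, and the share for all 6 libraries was not counted. The male ∆IEC libraries, replicate 1 of each group, had 224 and 235 CPM. Of the tissue isoforms, the muscle and heart form Cox7a1 was well expressed, with 113, 154 and 89.0 CPM in HIF1α∆IEC, 82.1, 60.0 and 53.4 CPM in HIF2α∆IEC and 116, 49.6 and 62.8 CPM in control. Striated muscle markers summed to 3.8 to 3.95 CPM in HIF1α∆IEC, 3.14 to 5.24 CPM in HIF2α∆IEC and 2.12 to 6.3 CPM in control, with Myh6 and Myh1 at 0 in every library. Cox6b2, known from testis, had 7.34, 7.84 and 4.99 CPM in HIF2α∆IEC, against 3.86, 4.80 and 3.72 CPM in control, and a log2 fold change of 0.70 ± 0.33 (SE; edgeR adjusted p = 1.0). Cox6a2, the muscle form of subunit VIa, stayed under 2 CPM, with 1.95 CPM in HIF2α∆IEC replicate 1 and 0.146 to 0.910 CPM in the other 8 libraries.

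Complex V, ATP synthase, has a catalytic F1 head, a membrane ring of c subunits and a stalk that joins them. In HIF1α∆IEC against control the 5 head genes had a median log2 fold change of 0.13, the 3 c-ring genes 0.64 and the 9 genes of the stalk, membrane part and relatives 0.37. HIF2α∆IEC against control gave -0.11, -0.21 and -0.06, and HIF2α∆IEC against HIF1α∆IEC gave -0.21, -0.85 and -0.18. Atp5b, the catalytic β subunit (chromosome 10, 128083273 to 128090391), had 4267, 2175 and 4087 CPM in HIF1α∆IEC, 2805, 3612 and 3166 CPM in HIF2α∆IEC and 4459, 2934 and 3196 CPM in control. Its partner α, Atp5a1, had 2718, 1666 and 2380 CPM in HIF1α∆IEC, 1990, 2331 and 2297 CPM in HIF2α∆IEC and 2723, 2093 and 2325 CPM in control. Atp5b and Atp5a1 were lowest in HIF1α∆IEC replicate 2, the library where most small subunits were highest. Within the head, the small δ and ε subunits Atp5d and Atp5e (Atp5e named after its values were seen) had log2 fold changes of 0.40 and 0.53 in HIF1α∆IEC, and the γ subunit Atp5c1 0.13.

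The c subunit is made from 3 genes whose mature proteins are identical. Atp5g2 (ENSMUSG00000062683, chromosome 15, 102662864 to 102672352, minus strand) had 295, 600 and 392 CPM in HIF1α∆IEC, 148, 260 and 182 CPM in HIF2α∆IEC and 312, 203 and 179 CPM in control. Its log2 fold change was 0.89 ± 0.32 in HIF1α∆IEC against control (SE; edgeR adjusted p = 0.999) and -1.13 ± 0.32 in HIF2α∆IEC against HIF1α∆IEC (SE; edgeR adjusted p = 0.649). Atp5g1 had 409, 638 and 442 CPM in HIF1α∆IEC, 256, 317 and 254 CPM in HIF2α∆IEC and 413, 266 and 278 CPM in control. Atp5g3, the most abundant of them, had 814, 730 and 867 CPM in HIF1α∆IEC, 630, 705 and 568 CPM in HIF2α∆IEC and 929, 532 and 558 CPM in control. HIF2α∆IEC lay wholly below HIF1α∆IEC in 3 of 3 c-ring genes, against 6.08% of all genes, and HIF1α∆IEC overlapped control in all 3. Atp5l, a membrane subunit of the dimer interface, had 285, 386 and 284 CPM in HIF1α∆IEC, against 268, 155 and 168 CPM in control.

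The 9 genes of the stalk, membrane part and relatives differed in sign: in HIF2α∆IEC against HIF1α∆IEC 7 were negative and 2 positive. Of the 9, 4 lay wholly lower and 1 wholly higher, against 941 and 676 of all 15486 genes. Atp5k and Atp5j2 had log2 fold changes of 0.64 and 0.80 in HIF1α∆IEC and 0.06 and -0.16 in HIF2α∆IEC, both against control. Atp5j had 0.37 and 0.19. Atp5o, the subunit that joins stalk and head, had 0.09 and -0.06, but its row spans several other genes, among them Itsn1, Cryzl1 and Donson. Atp5f1, the stalk b subunit, named here after its values were seen, had 180, 404 and 192 CPM in HIF1α∆IEC, 314, 204 and 262 CPM in HIF2α∆IEC and 195, 247 and 280 CPM in control. Its high libraries were those of Sdha and Ndufs1.

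**Figure D3:**
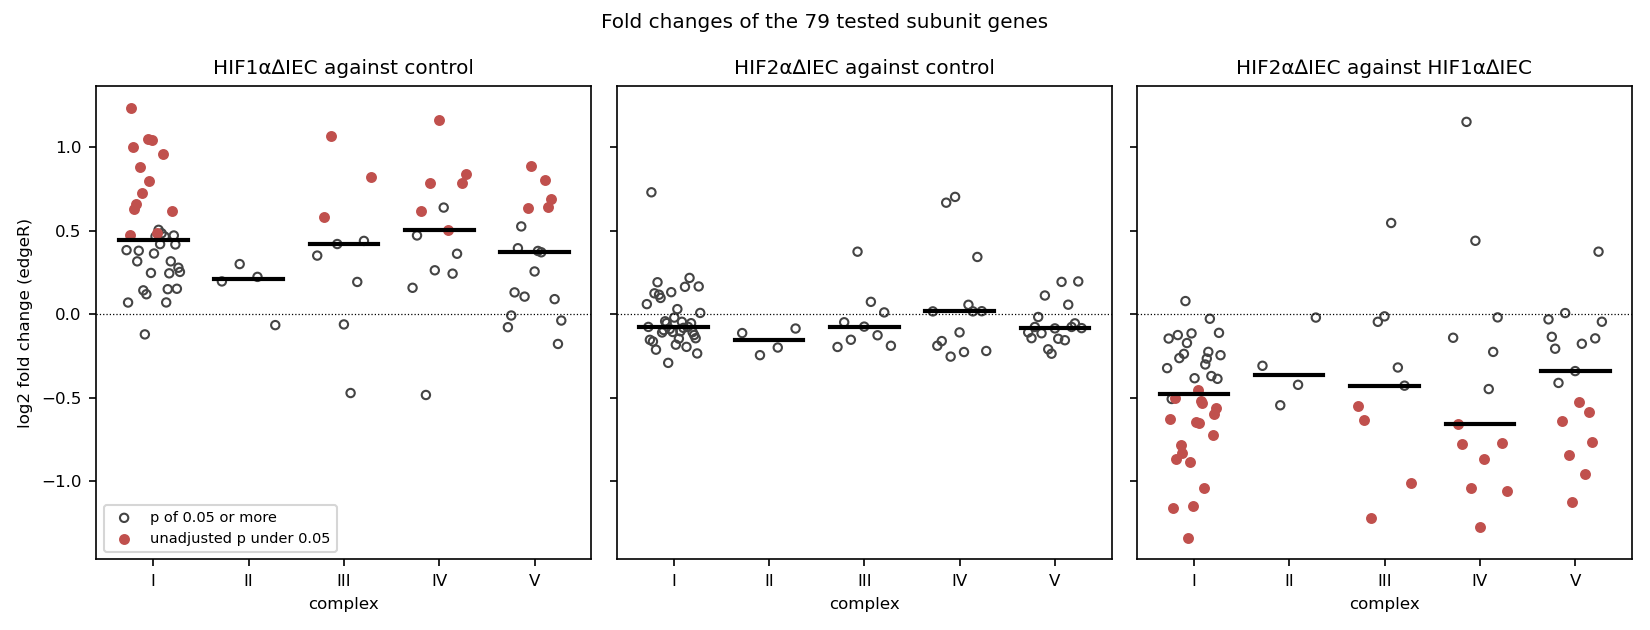
Each point is the edgeR log2 fold change of 1 of 79 tested subunit genes, grouped by complex on the horizontal axis, in the 3 comparisons, with thick lines for the median and filled points for an unadjusted p under 0.05. In HIF1α∆IEC against control medians run from 0.21 (complex II) to 0.51 (complex IV), in HIF2α∆IEC against control they lie near 0, and in HIF2α∆IEC against HIF1α∆IEC from -0.34 (complex V) to -0.66 (complex IV), while no gene passed an adjusted p of 0.05.

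HIF2α∆IEC against control showed no common shift of the members. Of 79, 26 were positive and 53 negative, with a median log2 fold change of -0.08 and a range of -0.29 to 0.73, and all genes had a median of 0.01. The share called was 0.0% of all genes and 0 of 79 members (edgeR; smallest adjusted p of a member 1.0). At an unadjusted p under 0.05 there were 0 members by edgeR and limma-voom and 1 by DESeq2, against 1.11% of all genes higher and 0.743% lower by edgeR. Libraries of HIF2α∆IEC lay above all controls for 5 members, Cox7b, Ndufv2, Uqcrb, Ndufs4 and Cox6b2, against 3.03% of all genes. Library medians were -0.10, 0.11 and -0.14 log2 units from the control mean in HIF2α∆IEC, against 0.38, -0.17 and -0.17 in control. Without control replicate 1 the median turned to 0.12, with 69 of 79 members positive.

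Most subunit genes lay lower in HIF2α∆IEC against HIF1α∆IEC. Of 79 members 6 were positive and 73 negative, with a median log2 fold change of -0.43, where all genes had a median of 0.01. The members ranged from -1.34 to 1.15, the upper end being the low-count isoform Cox6a2, and members outside complex IV reached 0.55. None was called, as for 0.0% of all genes (edgeR; smallest adjusted p of a member 0.649), and DESeq2 called 0 members with a smallest adjusted p of 0.155. At an unadjusted p under 0.05, 36 members were lower and 0 higher, against 4.29% of all genes lower and 2.31% higher. All HIF2α∆IEC libraries lay below all HIF1α∆IEC libraries for 46 members, against 6.08% of all genes. By complex, 22 of these were of complex I, 2 of complex II, 5 of complex III, 8 of complex IV and 9 of complex V. Without HIF1α∆IEC replicate 2 and HIF2α∆IEC replicate 1 the median was -0.36. At an unadjusted p under 0.05, 11 members were then lower and 1 higher, against 1519 of 15646 genes in either direction. This comparison shares its HIF1α∆IEC libraries, and both comparisons with control share the controls, so their values are not independent.

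Members did not vary as 1 block. The correlation of a member with the median of all members over the 9 libraries, a description, exceeded 0.9 for 38 of 79 and was below 0 for 7. Each member is itself part of that median, and the share of all genes above 0.9 was not counted. In HIF1α∆IEC replicate 2 they went both ways: 50 members were higher there than in both other HIF1α∆IEC libraries and 22 were lower, against 40.1% and 45.7% of all genes. Median transcript lengths were 600.5 bases for the 50 and 1198.5 bases for the 22.

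Transcript length was set beside the fold changes. Of the 79 tested members 51 had a median coding transcript under 1 kb. Their median log2 fold change in HIF1α∆IEC against control was 0.485, against 0.295 for all 1132 tested coding genes of that length. From 1 to 2 kb 22 members had 0.15 and 3340 genes 0.06, and from 2 to 4 kb 6 members had 0.33 and 5571 genes -0.01. The same bins in HIF2α∆IEC against HIF1α∆IEC gave -0.56, -0.17 and -0.31 for members and -0.26, -0.01 and 0.06 for all coding genes. Short coding genes as a whole lay at 0.24, 0.39 and 0.41 log2 units from the control mean in HIF1α∆IEC, against 0.22, -0.08 and -0.15 in control. The correlation of log2 length with log2 fold change in HIF1α∆IEC was -0.451 over 79 members and -0.116 over 13228 coding genes, across genes that share these libraries. With the length column of the count table in place of GENCODE lengths it was -0.262 over members and -0.139 over 13418 coding genes, and 8 members were then over 4 kb, with a median log2 fold change of 0.415. The part of transcript length in the members' differences was not tested.

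**Figure D4:**
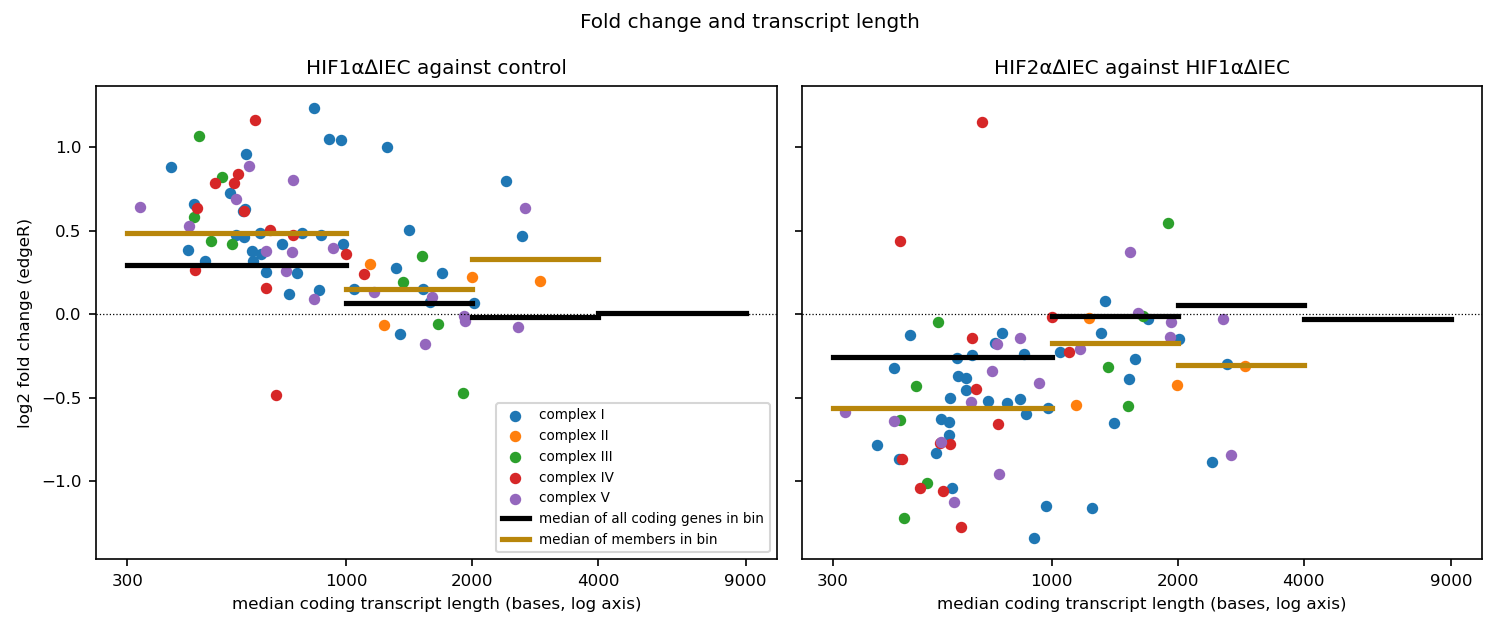
Log2 fold change of the 79 tested members (points, coloured by complex) against median coding transcript length (log axis), with black lines for the median of all tested coding genes in each length bin and gold lines for the members' median. Members under 1 kb have a median of 0.485 in HIF1α∆IEC against control and all coding genes of that length 0.295, and by these lengths no member exceeds 4 kb.

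Related gene lists show how far the pattern reached. Mitochondrially encoded subunits, the partners of these genes in complexes I, III, IV and V, were positive for 13 of 13 in HIF1α∆IEC against control, with a median log2 fold change of 0.93. HIF1α∆IEC replicate 2 was highest: the list stood at 0.13, 1.64 and 0.37 log2 units in HIF1α∆IEC and at 0.89, -0.19 and -0.32 in HIF2α∆IEC, against -0.16, 0.15 and -0.01 in control. HIF2α∆IEC replicate 1 was thus high for the mitochondrial list and at -0.10 for the nuclear members. mt-Co3 had a log2 fold change of 1.41 ± 0.40 and mt-Nd3 of 1.26 ± 0.44 (SE; edgeR adjusted p = 0.999 for both), in HIF1α∆IEC against control.

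Subunits and carriers outside the name rule lay with the members: 4 of 5 were positive in HIF1α∆IEC against control, median 0.45. Usmg5, a small ATP synthase subunit, had 340 ± 107 CPM in HIF1α∆IEC and 198 ± 81.9 CPM in control (SD, n = 3 each), and Cox4i1, the largest nuclear subunit of complex IV, had 1456 ± 77.3 CPM in HIF1α∆IEC and 1063 ± 319 CPM in control. Assembly factors, which build the complexes, had 21 of 43 positive and a median of 0.00. Among them Cox14 had 0.92 ± 0.31, Uqcc2 0.88 ± 0.31 and the copper chaperone Cox17 -1.33 ± 0.55 (SE), at 1.63 ± 0.403 CPM in HIF1α∆IEC and 4.09 ± 2.06 CPM in control (SD, n = 3 each). The mitochondrial ribosome had 50 of 76 positive with a median of 0.07, and Mrps24 and Mrpl54 had 1.11 and 0.89. Tricarboxylic acid cycle genes had 3 of 17 positive and a median of -0.08, with Idh3b at -0.28 and Sucla2 at 0.72. Regulators of mitochondrial biogenesis had 4 of 14 positive and a median of -0.12, with the receptor Esrra at 0.32 and the coactivator gene Pprc1 at -0.38.

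Cytosolic ribosomal protein genes, which are short and not mitochondrial, had 64 of 75 positive in HIF1α∆IEC against control, with a median of 0.39, and 13 of 75 in HIF2α∆IEC against HIF1α∆IEC, with a median of -0.40. Their library medians were 0.25, 0.51 and 0.51 log2 units in HIF1α∆IEC and -0.39, 0.27 and -0.06 in HIF2α∆IEC, against 0.25, -0.03 and -0.21 in control. Control replicate 1 was thus the highest control in this list too. In HIF2α∆IEC against control the medians of assembly factors, mitochondrial ribosome and tricarboxylic acid cycle genes were -0.07, -0.06 and -0.02. None of the genes in these lists was called by edgeR in any comparison.

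**Figure D5:**
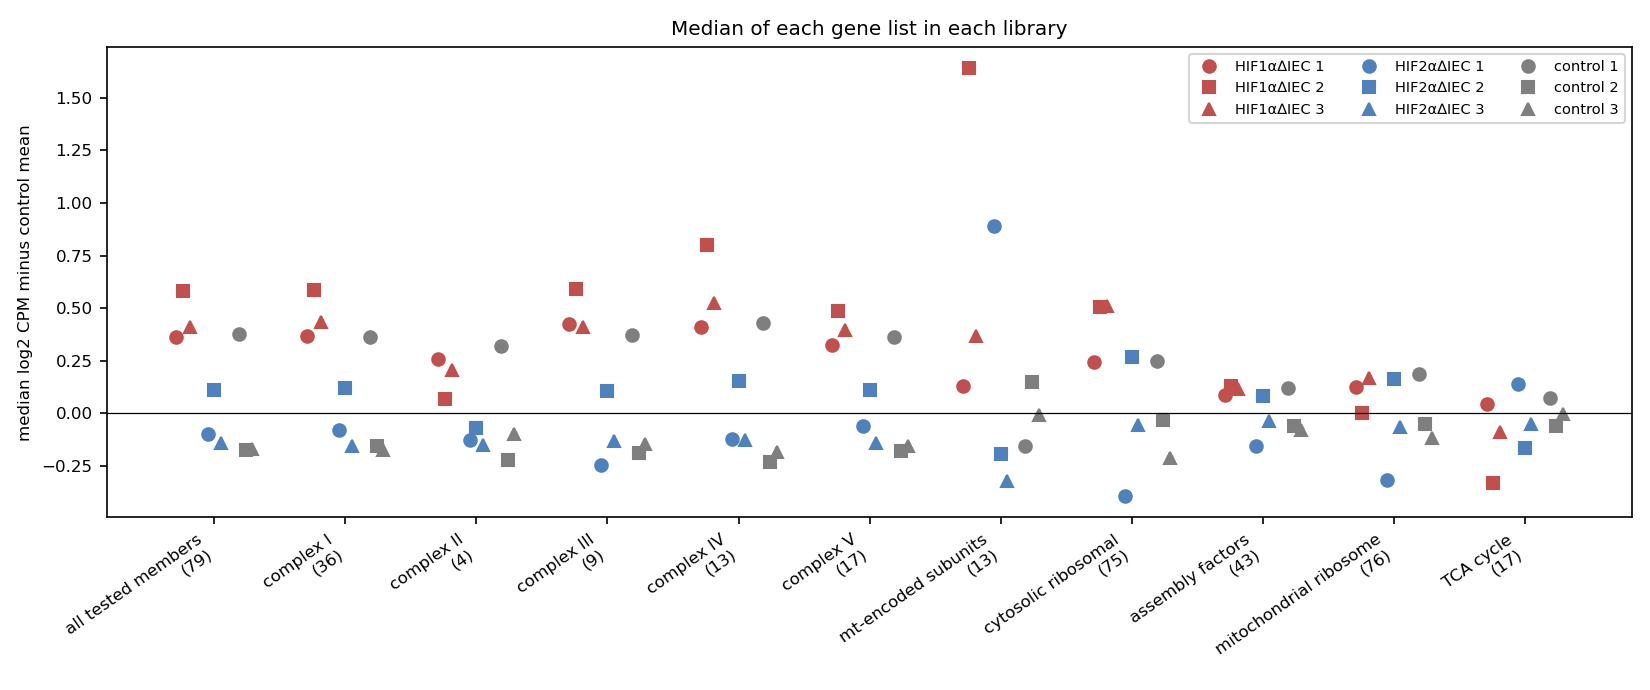
Median of log2 CPM minus the control mean for each gene list (numbers of genes in brackets) in each library, in red for HIF1α∆IEC, blue for HIF2α∆IEC and grey for control, with circle, square and triangle for replicates 1, 2 and 3. For all members HIF1α∆IEC lies at 0.37, 0.58 and 0.41 and control at 0.38, -0.17 and -0.17, and for mitochondrially encoded subunits HIF1α∆IEC replicate 2 (1.64) and HIF2α∆IEC replicate 1 (0.89) stand above the other 7 libraries.

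Cell markers were set beside the members. Enterocyte markers summed to 11600 to 14600 CPM in HIF1α∆IEC, 10200 to 20700 CPM in HIF2α∆IEC and 8940 to 12800 CPM in control, highest in HIF2α∆IEC replicate 1. Crypt proliferation markers were lowest in control replicate 1 (747 CPM) and HIF1α∆IEC replicate 1 (789 CPM), and ran from 789 to 1400 CPM in HIF1α∆IEC, from 810 to 1380 CPM in HIF2α∆IEC and from 747 to 1420 CPM in control. All 10 lymphocyte markers were detected, and they summed to 340 to 527 CPM in HIF1α∆IEC, 211 to 2590 CPM in HIF2α∆IEC and 275 to 400 CPM in control, where the 2590 CPM was HIF2α∆IEC replicate 1. Macrophage markers (6 of 6 detected) summed to 22.5 to 53.0 CPM in HIF1α∆IEC, 18.2 to 48.6 CPM in HIF2α∆IEC and 12.4 to 19.0 CPM in control. Stroma and smooth muscle markers (10 of 10 detected) summed to 2.10 to 9.63 CPM in HIF1α∆IEC, 7.98 to 10.3 CPM in HIF2α∆IEC and 1.27 to 2.81 CPM in control. Erythroid markers (6 of 6 detected) summed to 2.57 to 23.7 CPM in HIF1α∆IEC, 13.1 to 118 CPM in HIF2α∆IEC and 2.73 to 6.91 CPM in control. The part of cell composition in the members' differences was not tested, and in bulk RNA fewer cells of a type and less RNA per cell cannot be told apart. Of the libraries read as male, the members' median stood at 0.37 log2 units in HIF1α∆IEC replicate 1 and -0.10 in HIF2α∆IEC replicate 1, against 0.38, -0.17 and -0.17 in the controls.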

How the data were processed

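RNA of small intestine epithelial cells from 9 mouse libraries, 3 per group, was measured by RNA-seq. The authors deposited a table of raw read counts per gene, and per the labels' protocols libraries came from an Illumina TruSeq kit. Per the submitters' processing notes, Bowtie 0.12.2, CASAVA and the mm10 genome were used. How reads were assigned to genes, with which annotation and whether by strand, is not given in the sources used here. Overlapping genes could therefore share reads. Groups were taken from the sample titles.

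Members were found by name among protein-coding rows. Members and lists were chosen with earlier results of these data known. All 9 libraries entered 1 fit in edgeR 4.0.16 (R 4.3.3, limma 3.58.1): filterByExpr, TMM scaling, the quasi-likelihood F test with 6 residual degrees of freedom, and Benjamini-Hochberg adjustment over all 15486 genes tested, called under 0.05. CPM values are TMM-scaled, with a prior count of 2 on the log2 scale. The common biological coefficient of variation was 0.353. No list was tested as a set. Totals ran from 20959964 to 40391453 counts per library, and limits from counts cover counting error only.

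Named genes were fixed core subunits and isoforms of each complex and, per complex and comparison, up to 3 members with the smallest unadjusted p at a mean CPM of at least 1. Alternatives were RLE and upper-quartile scaling, mitochondrially encoded genes left out, no filter, a minimum of 1 CPM in 3 libraries, DESeq2 1.42.0, limma-voom, only the 6 libraries compared, a replicate block, a sex term (from Xist and genes of the Y chromosome), and single libraries left out. The promoter windows are from RefSeq (GRCm38.p6) and transcript lengths from GENCODE M21. A single member, counted in the totals, is not reported here by name.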

Additional observations from a re-analysis of the deposited data

How the results depend on the processing

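No member was called under any alternative. The members' median log2 fold change with single libraries left out ran from 0.32 to 0.55 in HIF1α∆IEC against control, from -0.17 to 0.12 in HIF2α∆IEC against control and from -0.51 to -0.39 in HIF2α∆IEC against HIF1α∆IEC. Calls over all genes, 0 in each comparison, were 1 with no filter, 2 with DESeq2 and 1 with the replicate block in HIF1α∆IEC against control. In HIF2α∆IEC against control they were 5 with no filter, 5 with DESeq2, 2 with the replicate block and 1 without the 2 libraries rich in mitochondrial transcripts. In HIF2α∆IEC against HIF1α∆IEC they were 10 with no filter and 15 with DESeq2. Single libraries left out gave 0 to 1 in each comparison.

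In HIF1α∆IEC against control, 27 members had an unadjusted p under 0.05 with all libraries. The count was 0 with the sex term, 10 without the 2 libraries rich in mitochondrial transcripts, and 4 to 44 with single libraries left out. The count over all genes moved too. It was 600 of 15486 with all libraries, 438 of 15486 with the sex term, and 1118 of 15646 without the 2 libraries. Single libraries left out gave 219 to 1150 genes. In HIF2α∆IEC against control the count of 0 was 1 with no filter, 1 with DESeq2, and 1 with only the 6 libraries. It was 2 without the 2 libraries, and 0 to 1 with single libraries left out. Over all genes these counts were 287 of 15486 with all libraries, 797 of 25050 with no filter, and 355 of 15486 with DESeq2. They were 312 of 15089 with only the 6 libraries and 876 of 15646 without the 2 libraries. Single libraries left out gave 186 to 594 genes here. In HIF2α∆IEC against HIF1α∆IEC the count of 36 was 12 without the 2 libraries and 17 to 37 with single libraries left out. Over all genes it was 1021 of 15486 with all libraries and 1519 of 15646 without the 2 libraries. Single libraries left out gave 728 to 1518 genes. The median of complex IV in HIF2α∆IEC against HIF1α∆IEC was -0.37 without the 2 libraries. In HIF2α∆IEC against control the median with single libraries left out ran from -0.25 to 0.0231 for complex II and from -0.19 to 0.12 for complex V. The cause of these moves was not tested.

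With the replicate block, 23, 0 and 31 members had an unadjusted p under 0.05 in HIF1α∆IEC against control, HIF2α∆IEC against control and HIF2α∆IEC against HIF1α∆IEC. Over all 15486 genes the same 3 comparisons gave 432, 230 and 806. The labels do not say whether replicate numbers pair the samples. Deviations from group means correlated at -0.37 to 0.237 between same-numbered libraries of different groups. For libraries with different numbers this was -0.257 to 0.35. With 3 libraries a group these values cannot decide whether samples were paired. With some single library left out, 10 of 45 named fold changes turned sign in HIF1α∆IEC against control, 31 of 42 in HIF2α∆IEC against control and 10 of 44 in HIF2α∆IEC against HIF1α∆IEC. With 3 libraries a group and a median SE of 0.241 for members, small differences were not detectable.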
